A study of Mus musculus with 6 samples.

Results

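Autophagy is the route by which a cell encloses part of its cytoplasm in a double membrane and delivers it to lysosomes. The 31 genes described here encode its machinery, and all 31 are among the 11881 genes of the deposited count table. They were chosen by name, from known roles, with earlier results of these data known. They fall into 5 steps: initiation (4 genes), nucleation (10), conjugation (8), the LC3 and GABARAP family (5) and cargo receptors (4). The RNA came from microglia, the resident macrophages of the brain, sorted from mouse hippocampus as CD11b-positive cells with low CD45. Of the male mice, aged 17 to 21 days, 3 were labelled Mll5+/-, with 1 disrupted copy of Mll5 (now Kmt2e), and 3 were labelled wild type (WT). The design text names 3 mice of each genotype, and each library was taken as 1 mouse. The sources used here give no strain, litter or way in which the copy was disrupted.

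An autophagosome starts when the ULK kinase complex is released from inhibition by the nutrient sensor mTORC1. A lipid kinase complex around Beclin 1 then marks the growing membrane with phosphatidylinositol 3-phosphate, and a pair of ubiquitin-like conjugation systems attaches LC3 and GABARAP proteins to it. Receptors bind these proteins and bring in cargo. In macrophages and microglia, part of the same machinery also attaches LC3 to single-membrane phagosomes, a process called LC3-associated phagocytosis.

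The libraries held between 21075570 and 28053173 counts for the label Mll5+/- and between 23884734 and 29730400 for the label WT. Levels are given as CPM, which are counts relative to library size after TMM scaling, and 3 counts correspond to between 0.104 and 0.142 CPM. Kmt2e itself had 648, 298 and 513 CPM under the label Mll5+/- and 480, 378 and 688 CPM under WT. Its total over the gene thus does not tell the genotypes apart (log2 fold change -0.08, 95% interval from -0.79 to 0.63), and genotypes are named as labelled. All 10 microglial markers looked at were present in every library. Their summed level ran from 7360 to 8334 CPM under the label Mll5+/- and from 8957 to 13209 CPM under WT, without overlap. Of 9 neuronal markers 3 were in the table, with summed levels from 9.59 to 35.9 CPM under Mll5+/- and from 9.77 to 21.6 CPM under WT. Of 8 astrocyte markers 6 were in it (264 to 549 CPM under Mll5+/-, 386 to 545 CPM under WT), as were 6 of 7 oligodendrocyte markers (98.2 to 135 CPM under Mll5+/-, 140.3 to 185 CPM under WT, without overlap). Of 8 markers of border-associated macrophages, 6 were listed, and their summed levels lay higher under Mll5+/-, again without overlap (369 to 692 CPM under Mll5+/-, 265 to 328 CPM under WT), with Cd163, Lyve1 and Ms4a7 at 0 in some library. Of 8 monocyte and neutrophil markers 5 were in the table, and they summed to 223 to 278 CPM under Mll5+/- and 196 to 256 CPM under WT. Of 5 endothelial markers 3 were in it, with sums of at most 19.4 CPM under Mll5+/- and 21.2 CPM under WT. Markers of the other lists were also at 0 in some library. These were Aqp4 and Aldoc (astrocyte), Map2 and Stmn2 (neuronal), Mog and Cldn11 (oligodendrocyte), S100a9 and Ngp (monocyte or neutrophil) and Cdh5 and Flt1 (endothelial). No microglial marker was. Lack of overlap is common here, at 9.32% of all genes tested one by one, and no such share was taken for sums. In edgeR, 1 of the 10 microglial, 1 of the 6 astrocyte and 1 of the 6 oligodendrocyte markers in the table had an unadjusted p under 0.05. The share over all genes tested was 2.88%. None of the 6 border-associated macrophage markers did, nor any neuronal, monocyte, neutrophil or endothelial one. The part of these cells in the levels below was not tested. Mll5+/- replicate 3 was the shallowest library, with 1394 genes at 0 against 828 to 1185 in the other 5.

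No autophagy gene changed past the threshold, an adjusted p of 0.05 in edgeR's quasi-likelihood test over all 10832 genes tested. All 31 passed the filter on low counts. The background was the same, with 0% of all genes called. DESeq2 and limma-voom also called 0 of the 31, while DESeq2 called 0.255% of all genes and limma-voom 0%. DESeq2 gave Ulk1 no p, so it tested 30 of the 31. At an unadjusted p under 0.05, edgeR and DESeq2 each had 1 of the 31, Gabarapl1, and limma-voom had 0. In edgeR that is 3.23% of the autophagy genes, beside 2.88% of all genes (1.36% higher and 1.52% lower under Mll5+/-). The share over all genes was 4.87% of 11608 genes in DESeq2, which was run without the low-count filter, and 4.31% of the 10832 in limma-voom. Among the 10832 genes, DESeq2 had 433 under 0.05 unadjusted and called 24 after adjustment. Levels of 2 genes, Gabarapl1 and Wipi1, did not overlap between genotypes, which is 6.45%, beside 9.32% of all genes. Both shares lie near the background.

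The fold changes spread about evenly around 0. Of the 31 log2 fold changes (Mll5+/- minus WT throughout), 16 were positive and 15 negative, and 51.8% of all genes were positive. Their median was 0.01, beside 0.02 for all genes. A change of at least 1 on the log2 scale was fitted for 5 of the 31, or 16.1%, beside 18.3% of all genes. The 95% interval spanned 0 for 30 of the 31, and it lay within 1 on either side of 0 for 9. Standard errors ran from 0.208 (Rb1cc1) to 2.26 (Optn), and for the members outside those 9 the interval reaches past a 2-fold difference in at least 1 direction. In bulk RNA, fewer cells that express a gene and less of its RNA per cell cannot be told apart.

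**Figure D1:**
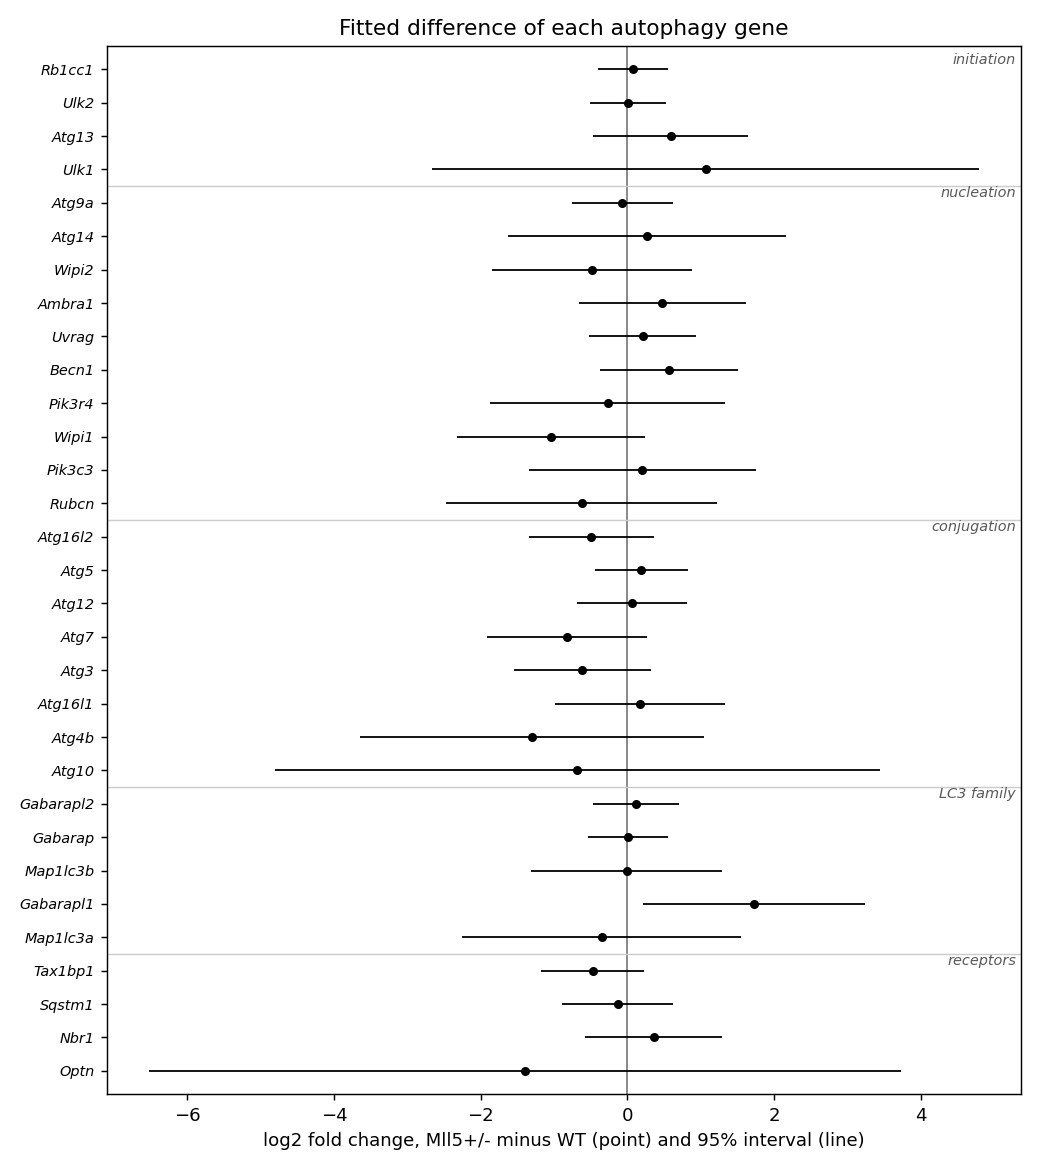
Fitted log2 fold change of each of the 31 autophagy genes, Mll5+/- minus WT (points), with its 95% interval (lines), grouped by step and ordered by mean level. The interval of Gabarapl1 alone lies to 1 side of 0, and those of Optn, Atg10 and Ulk1 are the widest.

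All 4 initiation genes had positive fitted log2 fold changes in edgeR, though those of Ulk1 and Ulk2 were negative in limma-voom, and all 4 overlapped between genotypes. Rb1cc1 encodes FIP200, the scaffold of the ULK complex, and was the member of highest CPM (chromosome 1, 6276421 to 6346872, build mm39 as for all gene positions here). It had 253, 285 and 366 CPM under the label Mll5+/- and 246, 312 and 299.95 CPM under WT. The genotypes overlapped, with a log2 fold change of 0.08 (SE 0.208, 95% interval from -0.40 to 0.55). Ulk2, 1 of the paired ULK kinases, had 245, 256 and 315 CPM under the label Mll5+/- and 315, 296 and 202 CPM under WT. The genotypes overlapped, and the highest values, in Mll5+/- replicate 3 and WT replicate 1, differ by less than 1 CPM. Atg13, the regulatory subunit that links the kinase to FIP200, had 27.6 ± 7.77 CPM under the label Mll5+/- and 18.3 ± 7.65 CPM under WT (SD, n = 3 each), with a log2 fold change of 0.59 (SE 0.467) that was 0.33 without Mll5+/- replicate 3, 0.38 without WT replicate 1 and 0.97 without WT replicate 2.

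Ulk1, the better-known ULK kinase and an mTORC1 and AMPK substrate, was the member that a single library set apart most (chromosome 5, 110932354 to 110957963). It had 0.158, 0.562 and 13.1 CPM under the label Mll5+/- and 3.60, 1.35 and 1.67 CPM under WT. In counts these are 4, 16 and 278 for Mll5+/- and 86, 35 and 48 for WT. Thus the lowest 2 libraries and the highest one all carry the label Mll5+/-, and the WT libraries lie between them. The log2 fold change of 1.07 (SE 1.64) became -2.60 without Mll5+/- replicate 3. It was -1.62 in limma-voom, which fits log2 values and weights libraries. Why the sign differed between tools was not tested. Ulk1 was the 1 of 31 members whose highest library was over 8 times the median of the 6 (3.23%, beside 4.5% of all genes). Ulk1 made up 0.0642%, 0.219% and 4.01% of the summed Ulk1 and Ulk2 counts in the libraries labelled Mll5+/-, and 1.13%, 0.453% and 0.819% in those labelled WT. Exact binomial 95% intervals run from 3.56% to 4.50% for Mll5+/- replicate 3 and from 0.904% to 1.39% for the highest WT library. They cover at most counting error and take reads as independent.

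In nucleation, the genes of the lipid kinase complex overlapped between genotypes, and Wipi1 was the 1 gene of 10 that did not. Wipi1 encodes a WD-repeat protein that binds phosphatidylinositol 3-phosphate on the forming membrane (chromosome 11, 109464157 to 109502258). It had 9.47, 8.04 and 6.81 CPM under the label Mll5+/- and 16.97, 10.2 and 23.0 CPM under WT. Every library labelled Mll5+/- lay below every WT library, by a narrow margin between Mll5+/- replicate 1 and WT replicate 2. Among all genes, 4.64% had this order of genotypes. Wipi1 was fitted at -1.04 on the log2 scale (SE 0.563), with an edgeR unadjusted p of 0.0974, and it did not pass the adjustment (edgeR adjusted p = 0.9995, and at least 0.935 under every alternative). Its paralog Wipi2, which recruits the ATG16L1 complex, had 59.1, 45.3 and 10.7 CPM under the label Mll5+/- and 60.5, 71.5 and 29.2 CPM under WT. Only Mll5+/- replicate 3 was below all WT libraries, and without it the log2 fold change of -0.49 (SE 0.601) became -0.05.

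Becn1, which encodes Beclin 1, the scaffold of the complex, had 42.4, 26.2 and 64.3 CPM under the label Mll5+/- and 23.7, 34.1 and 31.7 CPM under WT. Its log2 fold change of 0.57 (SE 0.412) was 0.19 without Mll5+/- replicate 3 and 0.82 without Mll5+/- replicate 2. The 2 highest values belonged to the label Mll5+/-, and the groups overlapped. Pik3c3, the lipid kinase VPS34, had 12.8 ± 6.13 CPM under Mll5+/- and 11.1 ± 7.84 CPM under WT (SD, n = 3 each). Pik3r4, its regulatory subunit VPS15, had 13.7 ± 9.67 CPM under Mll5+/- and 16.4 ± 10.3 CPM under WT (SD, n = 3 each). In both genes the spread within a genotype was larger than the difference between the means.

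Atg14, the subunit that directs the complex to autophagosome formation, was split by 1 WT library. It had 38.0, 71.5 and 42.3 CPM under the label Mll5+/- and 4.31, 59.1 and 62.9 CPM under WT. WT replicate 1 was far below the other 5 libraries, at 103 counts. The log2 fold change was 0.27 (SE 0.816) with all libraries and -0.28 without WT replicate 1. Uvrag, the alternative subunit to Atg14, had 42.3 ± 6.99 CPM under the label Mll5+/- and 36.6 ± 3.52 CPM under WT (SD, n = 3 each). Rubcn encodes Rubicon, a brake on canonical autophagy that LC3-associated phagocytosis needs, and had 6.90, 13.9 and 3.92 CPM under Mll5+/- and 11.1, 23.3 and 3.68 CPM under WT. Each genotype thus held a low and a high library for Rubcn. Ambra1, a Beclin 1 binding protein, had 47.4 ± 25.1 CPM under Mll5+/- and 34.1 ± 16.7 CPM under WT. Atg9a, the membrane-spanning scramblase that supplies the first vesicles, was the member of highest CPM in this step (chromosome 1, 75157504 to 75168840) and had 89.3, 84.3 and 129.6 CPM under Mll5+/- and 141, 77.6 and 98.8 CPM under WT. The genotypes overlapped, with a log2 fold change of -0.07 (SE 0.306), and the deposited span of Atg9a overlaps that of Ankzf1.

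Conjugation was the step with the lowest median, -0.55 over its 8 genes, of which 5 had negative and 3 positive log2 fold changes. None had an unadjusted p under 0.05 (edgeR, smallest 0.121), and in none did the genotypes stay apart. The genes differed among themselves. Atg5 and Atg12, whose products are joined to each other, overlapped closely. Atg5 had 90.7 ± 16.2 CPM under the label Mll5+/- and 79.6 ± 17.7 CPM under WT, and Atg12 had 53.4 ± 13.4 CPM under Mll5+/- and 51.2 ± 9.85 CPM under WT (SD, n = 3 each). The negative values lay with the enzymes that activate and load LC3 (Atg7, Atg3), with the protease that processes it (Atg4b), with Atg16l2 and with the sparse Atg10.

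Atg7, the E1-like enzyme of both conjugation systems, had 17.8, 30.9 and 10.5 CPM under the label Mll5+/- and 43.8, 27.7 and 33.7 CPM under WT. Only Mll5+/- replicate 2 reached the WT range. Atg7 was fitted at -0.83 on the log2 scale (SE 0.482), with an edgeR unadjusted p of 0.121. Without Mll5+/- replicate 2 it was -1.32, with an unadjusted p of 0.0326 in edgeR, and without Mll5+/- replicate 3 it was -0.54. Over the left-out libraries the unadjusted p of Atg7 in edgeR ran from 0.0326 to 0.293. Atg3, the E2-like enzyme that hands LC3 to the lipid, had 24.7, 18.4 and 19.7 CPM under Mll5+/- and 43.6, 22.7 and 29.98 CPM under WT. Mll5+/- replicate 1 overlapped with WT replicate 2, and the log2 fold change was -0.62 (SE 0.412), or -0.35 without WT replicate 1.

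Atg4b, the cysteine protease that exposes the conjugated glycine of LC3, had 17.4, 3.90 and 0.567 CPM under the label Mll5+/- and 12.8, 12.5 and 28.8 CPM under WT. Mll5+/- replicate 3 held 12 counts of it, against 306 to 829 in the WT libraries, while Mll5+/- replicate 1 was inside the WT range. The log2 fold change of -1.30 (SE 1.03) was -3.02 without Mll5+/- replicate 1, with an unadjusted p of 0.0197 in edgeR. It was -0.78 without Mll5+/- replicate 3 and -0.79 without WT replicate 3. Over the left-out libraries the unadjusted p of Atg4b in edgeR ran from 0.0197 to 0.529. The deposited span of Atg4b overlaps that of Thap4, and without a stated strand setting reads of the pair may not be told apart. The values of Atg7, Atg4b, Atg14, Wipi2, Becn1, Atg3, Atg10, Rubcn, Ulk2 and Optn are given per library by a choice made after they were seen.

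Atg16l2, a paralog of Atg16l1, was the conjugation gene of highest CPM. It had 154, 94.7 and 169 CPM under the label Mll5+/- and 270.0, 217 and 100.1 CPM under WT, with a log2 fold change of -0.49 (SE 0.378). It was -0.20 without WT replicate 1, -0.29 without Mll5+/- replicate 2 and -0.81 without WT replicate 3, where the unadjusted p in edgeR was 0.0272. Over the left-out libraries that p ran from 0.0272 to 0.634. In WT replicates 1 and 2 Atg16l2 was above every library labelled Mll5+/-, and in WT replicate 3 it was near the bottom of the range. Atg16l1, the subunit that sets where LC3 is attached, had 17.2 ± 5.38 CPM under Mll5+/- and 15.3 ± 5.08 CPM under WT (SD, n = 3 each). Atg10, the E2-like enzyme for Atg12, was low, with 3.39, 0 and 1.89 CPM under Mll5+/- and 1.34, 4.50 and 2.64 CPM under WT.

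**Figure D2:**
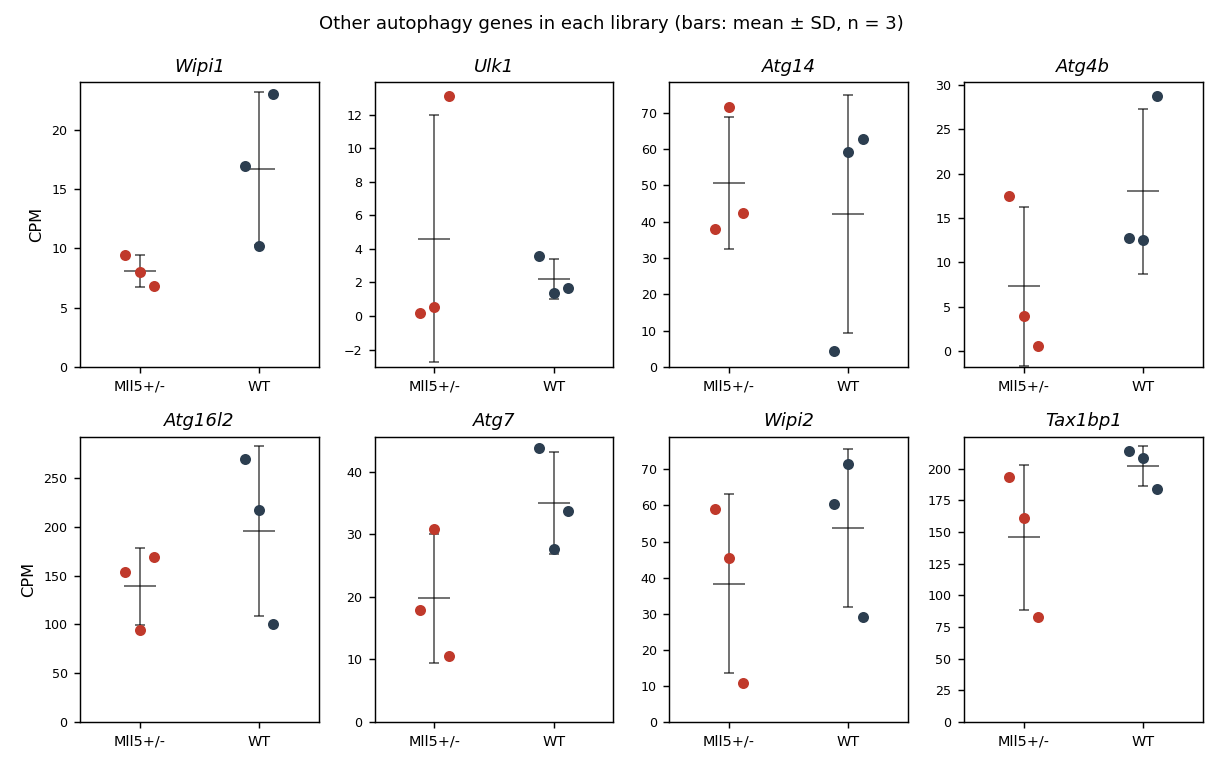
CPM of 8 autophagy genes in each library (points; each panel's axis has its own range), Mll5+/- left and WT right, with mean ± SD (n = 3 each). Wipi1 is the 1 gene here without overlap, and single libraries stand apart for Ulk1 (13.1 CPM in Mll5+/- replicate 3) and Atg14 (4.31 CPM in WT replicate 1).

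The LC3 and GABARAP family, the proteins that are joined to the membrane, held the member with the smallest p. Gabarapl1, a GABARAP paralog (chromosome 6, 129510123 to 129519309), had 7.77, 24.8 and 24.1 CPM under the label Mll5+/- and 7.11, 6.62 and 3.33 CPM under WT. Mll5+/- replicates 2 and 3 were far above the WT libraries, and Mll5+/- replicate 1 was just above the highest of them. Among all genes, 4.68% had this order of genotypes. The log2 fold change was 1.73 (SE 0.667, 95% interval from 0.21 to 3.24), with an unadjusted p of 0.0297 in edgeR. It did not pass the adjustment in edgeR (adjusted p = 0.9995) or in DESeq2 (adjusted p = 0.679), and 0.679 was its lowest adjusted p over the alternatives. The unadjusted p was 0.0814 in limma-voom, and over the left-out libraries in edgeR it ran from 0.0107 without Mll5+/- replicate 1 to 0.110 without Mll5+/- replicate 2.

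Its close relatives Gabarap and Gabarapl2 had higher levels per kilobase and fitted differences near 0. Gabarap (chromosome 11, 69881969 to 69885777) had 81.7, 109 and 103 CPM under the label Mll5+/- and 96.1, 89.9 and 106 CPM under WT, with a log2 fold change of 0.01 (SE 0.240). Gabarapl2 (chromosome 8, 112667335 to 112680244) had 122, 86.1 and 141 CPM under the label Mll5+/- and 113, 111 and 98.1 CPM under WT, with a log2 fold change of 0.12 (SE 0.257). Both genotypes overlapped in both genes. Gabarapl1 made up 3.67%, 11.2% and 8.98% of the summed counts of these 3 genes in the libraries labelled Mll5+/-, and 3.29%, 3.19% and 1.60% in those labelled WT. The exact binomial 95% intervals of Mll5+/- replicate 1 (from 3.19% to 4.21%) and WT replicate 1 (from 2.82% to 3.81%) overlap.

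The LC3 genes themselves had lower levels per kilobase than Gabarap and Gabarapl2. Map1lc3a (chromosome 2, 155118217 to 155119993) had 5.05, 10.7 and 2.88 CPM under the label Mll5+/- and 6.81, 4.04 and 13.01 CPM under WT, with a log2 fold change of -0.35 (SE 0.836). Map1lc3b (chromosome 8, 122317100 to 122325499) had 20.001, 9.83 and 8.27 CPM under the label Mll5+/- and 15.97, 12.05 and 10.4 CPM under WT, with a log2 fold change of -0.01 (SE 0.576). The genotypes overlapped in both. The deposited span of Map1lc3b overlaps that of Zcchc14, and reads of genes in this family may also be shared with near-identical copies.

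**Figure D3:**
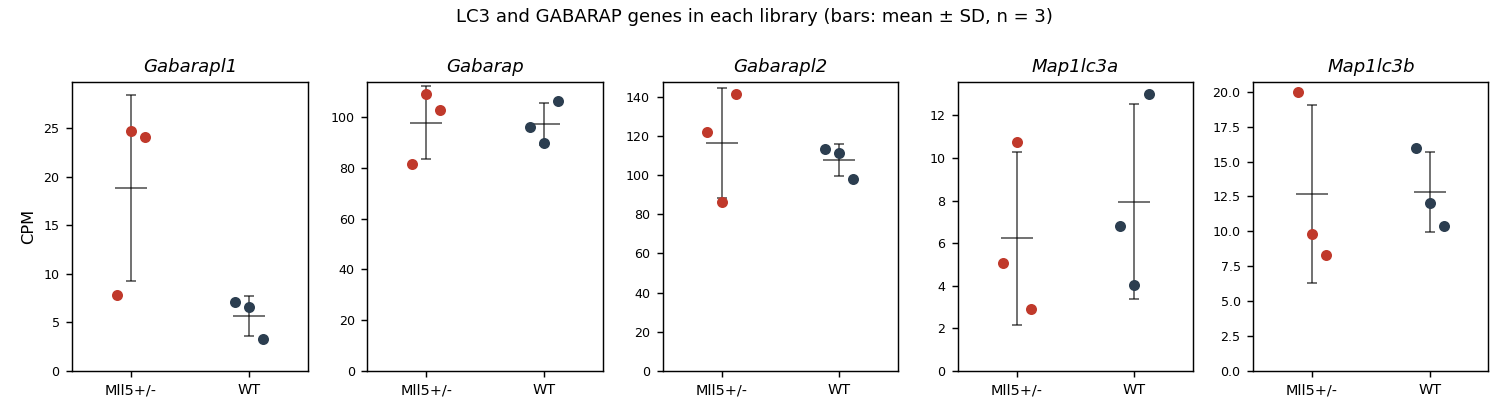
CPM of the 5 LC3 and GABARAP genes in each library (points; each panel's axis has its own range), Mll5+/- left and WT right, with mean ± SD (n = 3 each). Gabarapl1 lies between 7.77 and 24.8 CPM under the label Mll5+/- and at most at 7.11 CPM under WT, while the other 4 genes overlap.

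The stretches upstream of 3 genes are shown: Gabarapl1 and Wipi1 because their genotypes did not overlap, and Atg3 because it holds the letters bound by TFEB, TFE3 and MITF, factors known to drive lysosomal and autophagy genes. Each is the 250 bases before the annotated RefSeq start, on the gene's strand from 5′ to 3′ (RefSeq, build GRCm38.p6, which is not the build of the count table). Capitals mark the E-box core CACGTG.
Gabarapl1, chr6:129532942-129533191, plus strand: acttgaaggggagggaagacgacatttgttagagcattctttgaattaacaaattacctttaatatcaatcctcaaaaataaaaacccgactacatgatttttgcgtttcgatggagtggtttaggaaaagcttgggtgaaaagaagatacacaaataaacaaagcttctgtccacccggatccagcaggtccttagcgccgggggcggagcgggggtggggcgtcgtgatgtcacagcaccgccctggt
Wipi1, chr11:109611390-109611639, minus strand: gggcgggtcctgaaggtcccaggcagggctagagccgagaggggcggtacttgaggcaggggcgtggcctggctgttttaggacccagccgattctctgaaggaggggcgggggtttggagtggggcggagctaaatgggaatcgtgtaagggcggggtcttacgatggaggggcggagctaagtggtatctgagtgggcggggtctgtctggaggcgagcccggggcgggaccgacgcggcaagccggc
Atg3, chr16:45158579-45158828, plus strand: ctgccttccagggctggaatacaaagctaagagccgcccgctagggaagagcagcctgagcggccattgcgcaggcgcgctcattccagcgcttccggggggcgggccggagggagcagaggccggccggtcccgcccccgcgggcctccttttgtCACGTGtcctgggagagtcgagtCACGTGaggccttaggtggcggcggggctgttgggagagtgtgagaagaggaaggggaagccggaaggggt

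Atg3 holds the core at 2 places, the second within the extended form TCACGTGA, which starts 72 bases before the gene's start. The other stretches hold none. They differ in base composition, with 46.8% G and C for Gabarapl1, 67.2% for Wipi1 and 68.0% for Atg3. RefSeq windows of 300 bases (250 before to 50 after the start) were matched for 25 of the 31 genes. The core, which reads the same on both strands, was found for 5 of the 25 (20%), namely Atg14, Rubcn, Atg3, Atg5 and Atg7, beside 11.9% of 8670 genes tested with a window. The extended form was found for 1 of the 25 (4%) beside 2.36%. A FOXO core, GTAAACA on either strand, was found for 0 of the 25 beside 3.10%. Such matches are letters in a window and say nothing on whether a factor binds.

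Among the cargo receptors, Tax1bp1 had the highest CPM and Optn was without counts in 2 libraries. Tax1bp1, a receptor for ubiquitinated cargo, lies on chromosome 6 from 52690714 to 52743765. It had 193, 161 and 82.5 CPM under the label Mll5+/- and 214, 208 and 184 CPM under WT. Mll5+/- replicate 1 was inside the WT range and Mll5+/- replicate 3 far below it. Tax1bp1 was fitted at -0.47 on the log2 scale (SE 0.310), with an edgeR unadjusted p of 0.162, and the value became -0.20 without Mll5+/- replicate 3.

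Sqstm1, which encodes the receptor p62, had 50.1 ± 5.99 CPM under the label Mll5+/- and 55.0 ± 17.2 CPM under WT (SD, n = 3 each). Its span overlaps that of Mrnip. Nbr1, a p62-like receptor, had 35.4 ± 13.03 CPM under Mll5+/- and 27.6 ± 6.28 CPM under WT (SD, n = 3 each). Optn, the receptor optineurin, had 1.38, 1.47 and 0 CPM under the label Mll5+/- and 0, 5.85 and 1.70 CPM under WT, so that each genotype held a library without a count. Optn and Atg10 were the 2 of 31 members at 0 in at least 1 library.

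**Figure D4:**
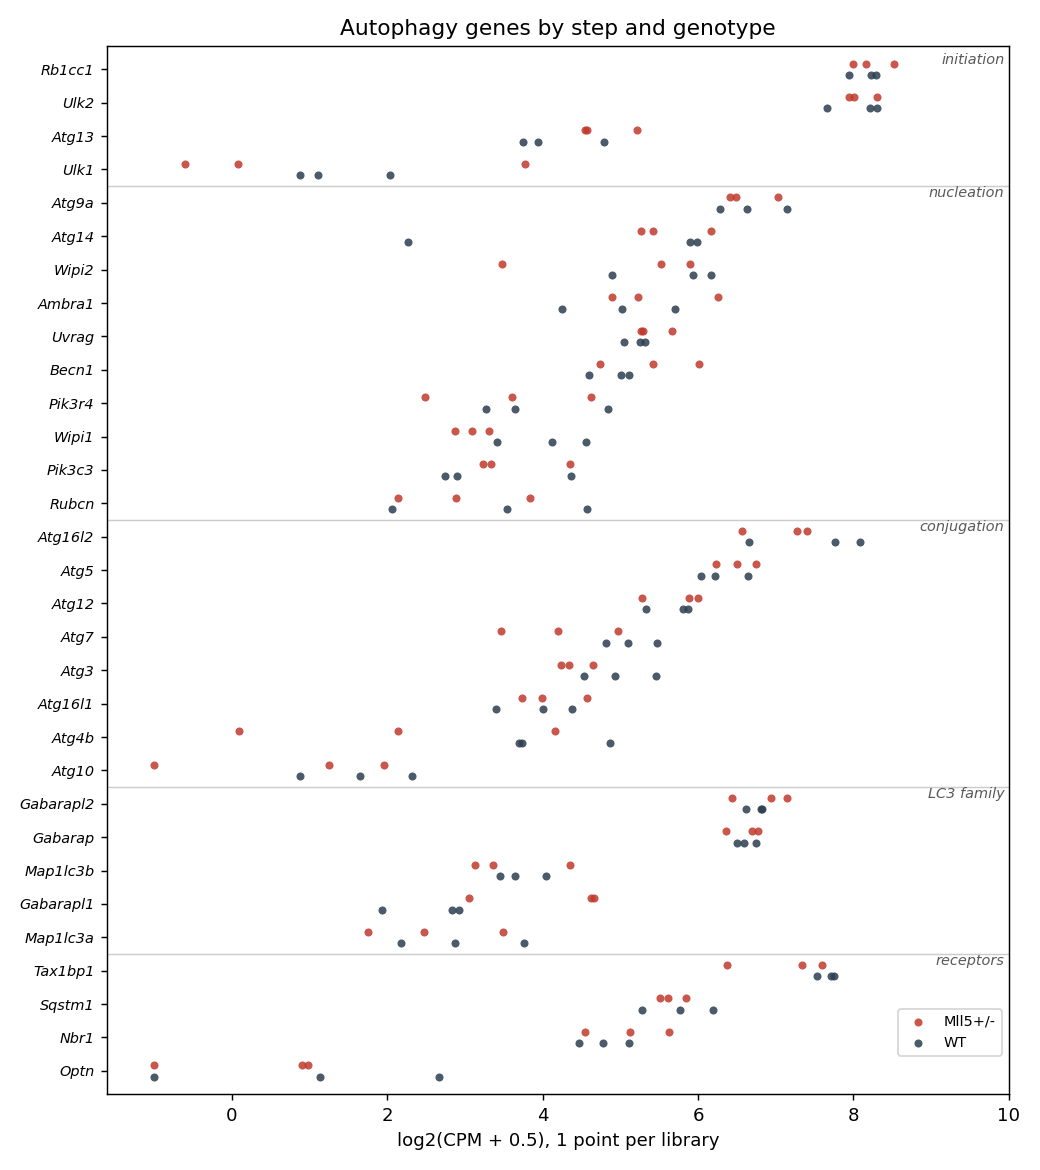
Level of each of the 31 autophagy genes in every library, as log2(CPM + 0.5), with Mll5+/- above WT in each row and genes grouped by step. The genotypes overlap in 29 of the 31 genes, and Gabarapl1 and Wipi1 are the exceptions.

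Summed over the genes of a step, the genotypes overlapped in all 5 steps. A sum is led by the abundant and long transcripts, such as Rb1cc1 and Ulk2 in initiation, Atg16l2 in conjugation and Tax1bp1 in the receptors. Initiation summed to 606 ± 110.2 CPM under the label Mll5+/- and 577 ± 59.1 CPM under WT, and nucleation to 367 ± 18.8 CPM under Mll5+/- and 359 ± 9.07 CPM under WT (SD, n = 3 each). Conjugation summed to 365, 299.6 and 386 CPM under the label Mll5+/- and 511, 434 and 345 CPM under WT. The receptors summed to 278, 230.3 and 188 CPM under the label Mll5+/- and 313, 287 and 261 CPM under WT. In both steps 2 of the 3 WT libraries were above all 3 labelled Mll5+/-, and the groups overlapped. Mean sums were 350 and 430 CPM for conjugation and 232 and 287 CPM for the receptors (Mll5+/- and WT). Atg16l2 alone averaged 139 and 196 CPM, and Tax1bp1 146 and 202 CPM, so the lower sums largely reflect single genes. Log2 fold changes were positive for 3 of the 8 conjugation genes and 1 of the 4 receptors. The LC3 family summed to 252 ± 23.5 CPM under Mll5+/- and 231 ± 7.58 CPM under WT (SD, n = 3 each), and all 31 genes to 1807 ± 147 CPM under Mll5+/- and 1885 ± 159 CPM under WT.

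**Figure D5:**
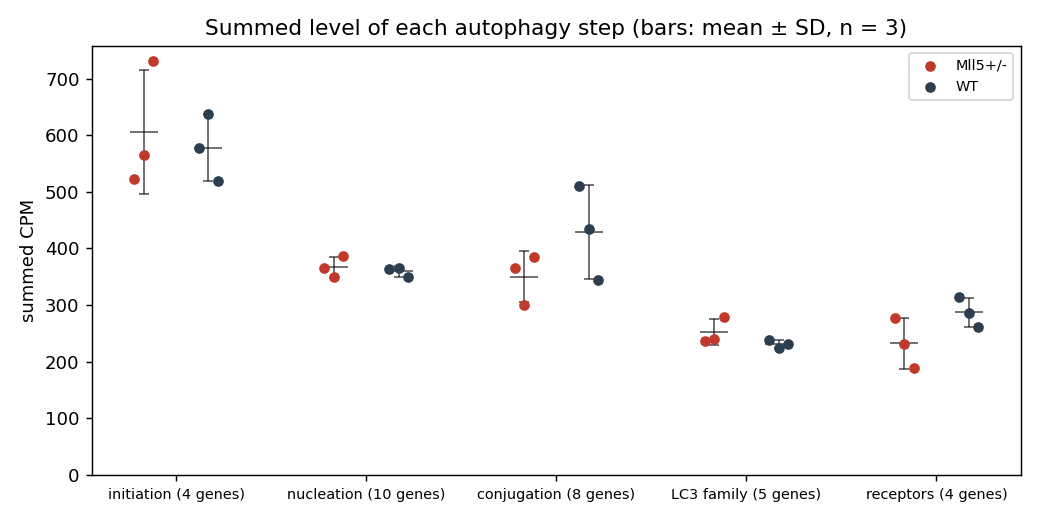
Summed CPM of the genes of each step in every library (points), Mll5+/- left and WT right, with mean ± SD (n = 3 each). Conjugation (299.6 to 386 CPM under Mll5+/-, 345 to 511 CPM under WT) and the receptors lie lower on average under Mll5+/-, with overlap in every step. These lower averages largely reflect Atg16l2 in conjugation and Tax1bp1 in the receptors.

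Per kilobase of merged exon (GENCODE release vM21), Gabarap, Gabarapl2 and Ulk2 were the 3 members of highest level in both genotypes. Gabarap had 53.1 ± 7.82 CPM per kb under the label Mll5+/- and 52.8 ± 4.52 CPM per kb under WT, Gabarapl2 had 50.1 ± 12.02 under Mll5+/- and 46.2 ± 3.52 under WT, and Ulk2 had 45.5 ± 6.25 under Mll5+/- and 45.3 ± 10.1 under WT, all in CPM per kb (SD, n = 3 each). Under Mll5+/- the libraries of these 3 genes overlap. Under WT every library of Gabarap was above every library of Gabarapl2 per kb, while Ulk2 overlapped with both. Atg5 followed, with 38.6 ± 6.91 CPM per kb under Mll5+/- and 33.8 ± 7.51 CPM per kb under WT. At the lower end, Ulk1 and Optn had under 1 CPM per kb in both genotypes. Gabarapl1 took rank 11 of 31 under Mll5+/- and rank 22 under WT. Map1lc3b, with 1.69 ± 0.847 CPM per kb under Mll5+/- and 1.70 ± 0.380 CPM per kb under WT, came out far below Gabarap. Merged exons count every annotated transcript of a gene, which lowers the level of genes with long rare forms.

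Single libraries moved many of the 31 genes. In 12 of them (38.7%) the highest library was at least 4 times the lowest or the lowest was at 0, beside 49.8% of all genes. Mll5+/- replicate 3 was the highest library for 9 members and the lowest for another 9, among them Optn, where it tied at 0 with WT replicate 1. Ties went to the first library in order, with the Mll5+/- libraries first, also in the all-gene shares. That is 29.0% at each end, beside 22.6% and 24.1% of all genes, so this library lies at the extremes more than others across the whole table. Among the 9 where it was lowest are Tax1bp1, Wipi1, Wipi2, Atg7 and Atg4b.

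Of 78 further genes of the pathway, in 5 lists, 75 were tested and none passed the threshold (edgeR, DESeq2 and limma-voom), with 1, 2 and 3 of them under an unadjusted p of 0.05 in these tools. DESeq2 had Vamp8 and Calcoco1 there, and limma-voom had Calcoco1, Flcn and Mitf. The 1 in edgeR was Vamp8 (1.33%, beside 2.88% of all genes), and 6 of the 75 did not overlap between genotypes (8%, beside 9.32%). Their median log2 fold change was 0.02. Vamp8, a SNARE of the lysosome that fuses it with autophagosomes, had 54.7, 82.1 and 80.3 CPM under the label Mll5+/- and 37.9, 51.1 and 36.2 CPM under WT. Every library labelled Mll5+/- was above every WT library, and the fitted log2 difference was 0.79 (SE 0.314), with an edgeR unadjusted p of 0.0330. With 1 library left out, the unadjusted p in edgeR ran from 0.0234 to 0.0998. Of the 17 genes of fusion with the lysosome, 8 had positive and 9 negative log2 fold changes.

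Of 16 further cargo receptors, 9 had positive and 7 negative log2 fold changes. Calcoco1, a receptor for the endoplasmic reticulum, had 21.7, 36.7 and 20.4 CPM under the label Mll5+/- and 12.4, 9.74 and 15.8 CPM under WT, without overlap (log2 fold change 1.06, SE 0.471, edgeR unadjusted p = 0.0521). Bnip3l, the mitophagy receptor NIX, had 357, 267 and 276 CPM under Mll5+/- and 358, 391 and 401 CPM under WT, also without overlap but with Mll5+/- replicate 1 and WT replicate 1 nearly equal (log2 fold change -0.35, SE 0.186). Retreg1, a receptor for the endoplasmic reticulum, and Vps18, a subunit of the HOPS tether, were also without overlap and were named after their values were seen. Retreg1 had 243, 319 and 311 CPM under Mll5+/- and 405, 343 and 367 CPM under WT, and Vps18 had 99.5, 72.0 and 86.7 CPM under Mll5+/- and 65.9, 69.4 and 50.4 CPM under WT.

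Among 22 tested genes of nutrient and energy control, 12 had positive and 10 negative log2 fold changes. Flcn, the folliculin gene that acts on TFE3 and TFEB through RagC, had 181, 298 and 331 CPM under the label Mll5+/- and 121, 153 and 230.2 CPM under WT (log2 fold change 0.68, SE 0.312). Sesn2, a leucine-sensing inhibitor of mTORC1, had 37.5, 40.8 and 21.5 CPM under Mll5+/- and 48.3, 38.0 and 82.8 CPM under WT (log2 fold change -0.76, SE 0.415, or -0.38 without WT replicate 3). Both overlapped between genotypes. Mitf, named after its values were seen, had 37.8, 3.16 and 36.5 CPM under Mll5+/- and 63.3, 43.9 and 82.6 CPM under WT, without overlap and with the lowest value in Mll5+/- replicate 2 (log2 fold change -1.29, SE 0.770, edgeR unadjusted p = 0.131). For Mitf limma-voom gave -2.04 with an unadjusted p of 0.0291, and edgeR gave -0.78 without Mll5+/- replicate 2. Prkaa2, a catalytic subunit of AMPK, did not pass the filter on low counts, with 0 CPM in all 3 libraries labelled Mll5+/- and 3.30, 7.77 and 0 CPM under WT. DESeq2, run without that filter, gave it an unadjusted p of 0.00128 and an adjusted p of 0.176.

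Of 14 further core genes tested, 5 had positive and 9 negative log2 fold changes. Bcl2, whose product binds and restrains Beclin 1, had 17.2, 32.7 and 22.0 CPM under Mll5+/- and 48.5, 22.9 and 62.4 CPM under WT (log2 fold change -0.89, SE 0.465, or -0.58 without WT replicate 3). Wdr45, a WIPI relative, had 11.4, 16.5 and 35.9 CPM under Mll5+/- and 10.9, 15.7 and 2.46 CPM under WT (log2 fold change 1.13, SE 0.753, or 0.52 without Mll5+/- replicate 3, 0.67 without WT replicate 3 and 0.73 in limma-voom). Both overlapped. Of the 6 partners of LC3-associated phagocytosis, the subunits and regulators of the NADPH oxidase, 4 were positive and 2 negative, and all overlapped. Ncf1 had 842, 915 and 917 CPM under Mll5+/- and 562, 673 and 1004 CPM under WT (log2 fold change 0.26, SE 0.221). It was 0.07 without WT replicate 1 and 0.53 without WT replicate 3, where the unadjusted p in edgeR was 0.0165. Over the left-out libraries that p ran from 0.0165 to 0.749. Ncf4 had 5.52, 4.07 and 2.08 CPM under Mll5+/- and 10.5, 4.16 and 6.84 CPM under WT (log2 fold change -0.88, SE 0.889, or -0.51 without WT replicate 1).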

How the data were processed

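Groups came from the labelled genotype (3 libraries each, numbered in sample order). RNA came from a TRIzol extraction and was amplified as cDNA by SMART-seq before tagging by transposase, per the labels' protocols. Raw counts per gene symbol, with gene coordinates, are what the authors deposited. The submitters' processing notes name mm39, FastQC, STAR, StringTie and DESeq2; no source used here states versions, the counting step or the strand setting. Counts were filtered with filterByExpr (minimum count 10, minimum total 15), which left 10832 of 11881 genes, scaled by TMM and tested with edgeR 4.0.16 (quasi-likelihood, robust, R 4.3.3), Mll5+/- minus WT, two-sided, with Benjamini-Hochberg adjustment over all genes and a threshold of 0.05. Standard errors and 95% intervals come from the coefficient and its F statistic. Alternatives were DESeq2 1.42.0, limma-voom (limma 3.58.1), other scalings, filters and thresholds, and leaving out each library. The script was tested on simulated counts.

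The members and lists were chosen with earlier results of these data known. Genes named with values per library were those with an unadjusted p under 0.05, those without overlap between genotypes, the member of highest CPM in each step, those whose highest library exceeded 8 times the median, the LC3 family and, of further pathway lists, those with an unadjusted p under 0.05 or the 2 of smallest p. Others were added after their values were seen. P-values set the genotype difference against the spread between these libraries within a genotype. The labels name no molecular identifiers for these amplified reads, so binomial intervals cover counting error only. Levels per kilobase use merged exons of GENCODE vM21 (GRCm38), and RefSeq promoter windows (GRCm38.p6) were matched by symbol.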

Additional observations from a re-analysis of the deposited data

How the results depend on the processing

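No alternative brought an autophagy gene past the threshold, whether by tool, scaling, filter, a threshold of 0.1 or leaving out a library, and the median log2 fold change of the 31 genes stayed between -0.08 and 0.07. Over all genes, DESeq2 without the low-count filter called 29, of which 24 were among the genes edgeR tested, where edgeR called 0. With 1 library left out edgeR called between 0 and 2. The number of autophagy genes with an unadjusted p under 0.05 was 1 in edgeR, 0 in limma-voom and between 0 and 2 with 1 library left out. The number without overlap was 2, and between 3 and 6 with 1 library left out, since fewer libraries overlap less often by construction. Shares over all genes were not taken for the fits with 1 library left out, so neither count has a background there. Of the 41 genes refitted under these 13 settings, 24 kept their sign in each. The 41 are the 31 autophagy genes and further pathway genes mostly named for a small p. All those further genes kept their sign, so every gene that turned was 1 of the 31. Kmt2e, Prkaa2, Retreg1 and Vps18 were not among them. In limma-voom the sign turned for Gabarapl2 (-0.0038), Ulk1 (-1.62), Map1lc3a (0.0596), Ulk2 (-0.11), Pik3r4 (0.0785) and Optn (0.0169). It turned for Gabarap with DESeq2 size factors (-0.000599) and without a low-count filter (-0.0107), for Ulk2 without that filter (-0.0102) and for Map1lc3b without TMM (0.0079). With 1 library left out, the log2 fold change spanned 0 for Ulk1 (-2.60 to 1.62), Optn (-1.98 to 0.16), Rubcn (-1.24 to 0.14), Map1lc3a (-1.02 to 0.20), Pik3r4 (-0.98 to 0.37), Pik3c3 (-0.28 to 0.96), Ambra1 (-0.0517 to 0.89), Atg14 (-0.28 to 0.67), Map1lc3b (-0.51 to 0.21), Atg16l1 (-0.13 to 0.42), Sqstm1 (-0.36 to 0.10), Atg9a (-0.30 to 0.18), Atg12 (-0.11 to 0.24), Gabarapl2 (-0.0573 to 0.28), Ulk2 (-0.17 to 0.12), Rb1cc1 (-0.10 to 0.17) and Gabarap (-0.10 to 0.11). The cause was not tested. Ulk1 and Optn fell below the stricter filter (at least 50 counts in at least 3 libraries) and have no value there. No paired analysis was possible because the labels give animals no shared numbers across genotypes. Precision is limited by 3 libraries a genotype: the median standard error of the 31 genes was 0.482, and the whole-table biological coefficient of variation was 80.4%.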
